A study of Rattus norvegicus with 9 samples.

Results

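Heat shock proteins and DnaJ chaperones were followed through RNA-Seq of rat dorsal root ganglia (DRG), the clusters of sensory neuron cell bodies beside the spinal cord, after peripheral nerve injury and after blockade of an oestrogen receptor. The genes were taken by symbol, as those beginning with Hspa, Hspb, Hspd, Hspe, Hsph, Hsp90, Dnaja, Dnajb or Dnajc, with Hspbap1 left out. This gave 70 genes of the 20194 in the deposited table. The 67 genes whose FPKM was 1 or more in any library are described here, and Dnajb7, Dnajc5b and Hspb9 stayed under that level. FPKM is a level scaled to transcript length and to the fragments of a library, so it can be set side by side for different genes. The 67 genes comprised 10 of the HSP70 family, 3 of the HSP110 family, 3 of the HSP90 family, 2 mitochondrial chaperonins, 7 small heat shock proteins, Hspbp1, and 4 DNAJA, 11 DNAJB and 26 DNAJC genes.

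All samples came from adult male Sprague-Dawley rats, and the groups were sham, SNI and SNI + G15, with 3 libraries each. In spared nerve injury (SNI) the tibial and common peroneal branches of the sciatic nerve are tied and cut while the sural branch is left intact. G15 is an antagonist of the G protein-coupled oestrogen receptor GPER, and it was given in DMSO through an intrathecal catheter placed on day 5 after SNI. The sham and SNI titles call these groups the controls of G15, and the labels of all groups say that drugs were dissolved in DMSO, without saying whether sham and SNI rats received it. Ganglia were taken from the injured side. The sources differ on the number of rats in a group, and whether each library was 1 rat or a pool is not stated, so the p-values measure the spread between these libraries, which may in part be technical. The tissue label is DRG, while the extraction text attached to the samples names another cell type, so the tissue was checked against markers. The 7 neuronal markers (Rbfox3, Uchl1, Snap25, Tubb3, Prph, Nefh and Isl1) summed to an FPKM of 9658 to 10358 in the 9 libraries, although 4 of them (Rbfox3, Snap25, Nefh and Isl1) were called lower and 2 (Tubb3 and Prph) higher in SNI against sham. The 7 macrophage markers summed to 118 to 320.

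Chaperones bind unfolded stretches of other proteins and keep them from clumping. HSP70 proteins do this in cycles driven by ATP, and a DnaJ protein, also called HSP40, delivers the client and starts the cycle. HSP110 proteins reset the cycle by exchanging the nucleotide, HSP90 finishes the folding of kinases and steroid receptors, and small heat shock proteins hold clients without ATP. Each compartment has its own set: the endoplasmic reticulum uses Hspa5 (BiP) and Hsp90b1 (GRP94), mitochondria use Hspa9 and the chaperonin pair Hspd1 and Hspe1, and the cytosol uses Hspa8 and the other HSP90 proteins. In sensory neurons the small heat shock protein Hspb1 is known for its rise after axotomy and for a role in neuron survival and axon growth.

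The estimated counts of a library summed to between 18484557 and 18756736, so depth was alike in the 3 groups. Each comparison was tested on these counts with edgeR's quasi-likelihood test over 14305 genes, and a gene was called at a Benjamini-Hochberg adjusted p below 0.05. One library stood apart. SNI + G15 replicate 3 held the highest of the 9 FPKM values for 19 of the 67 genes and the lowest for 18. No other library held the highest for more than 11 or the lowest for more than 13. The same count over all genes was not made. Over all genes tested, replicate 3 of SNI + G15 also deviated most from its group mean. Its root mean square deviation was 0.235 on the log2 scale, beside 0.203 to 0.229 in the other libraries. Within groups, the median coefficient of variation of the 67 genes was 6.11% in sham, 3.23% in SNI and 6.88% in SNI + G15. Where its removal changed a call of a named gene against SNI, both values are given.

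In sham ganglia the cytosolic chaperones were the most abundant of these genes. Hspa8, the constitutive HSP70, had a mean FPKM of 1163 ± 80.4 (SD, n = 3), followed by Hsp90ab1 with 969 ± 8.25, Hsp90aa1 with 749 ± 46.2 and Hspb1 with 347 ± 17.1. Hspb8, Dnaja1 and Hspa12a came next, with means of 173 ± 9.46, 154 ± 10.7 and 133 ± 2.19. The sham libraries of neighbours in this order did not overlap, except that the lowest Hspb8 library, at 166, was close to the highest of Dnaja1, at 164. The stress-inducible Hspa1a was under the FPKM minimum in sham, with FPKM values of 0.89, 0.71 and 0.32. Together the 67 genes made up 1.09% to 1.15% of all FPKM in sham libraries, 1.22% to 1.24% after SNI and 1.14% to 1.22% with G15.

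To ask how nerve injury changed the chaperones, the SNI libraries were compared with sham. Injury moved these genes in both directions: 17 of the 67 were called higher and 16 lower. Called in either direction were thus 33 of 67, or 49.3%, against 45.7% of all genes tested, and the shares of all genes called higher and lower were 23.3% and 22.4%. The SNI and sham FPKM values did not overlap for 39 of the 67 genes, against 53.9% of all genes tested. The median log2 fold change of the 67 genes was 0.003, beside 0.00102 for all genes. As a group these genes were thus called about as often as genes in general. The direction of the calls varied by family. HSP70 genes had 5 higher and 1 lower of 10, the small heat shock proteins had 3 higher and 3 lower of 7, and DNAJC genes had 2 higher and 6 lower of 26.

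To ask what G15 did after injury, SNI + G15 was compared with SNI. Here 3 of the 67 genes were called higher (Hspb1, Hspb2 and Dnajc19) and 7 lower (Hspa5, Dnajb9, Dnajb11, Dnajc3, Dnajc5, Dnajc13 and Hspa4l). That was 14.9% of the 67, against 15.2% of all genes, with 7.98% of all genes called higher and 7.25% lower. The values of the groups did not overlap for 31 of the 67, against 38.3% of all genes. The median log2 fold change was -0.004 for the 67 genes and 0.00631 for all genes. Without SNI + G15 replicate 3 the count rose to 18, of which 14 were lower. The count of all genes was then 2333, beside 2179 with all libraries. Without SNI replicates 1, 2 or 3 the count of the 67 fell to 4, 1 or 2. That of all genes fell to 1098, 925 or 893.

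In the comparison of SNI + G15 with sham, 12 of the 67 genes were called higher and 15 lower. The 27 called genes were 40.3%, against 43.2% of all genes tested, 21.4% higher and 21.9% lower. For 36 of the 67 the groups did not overlap, against 52.9% of all genes. With limma on log2(FPKM + 1) the split in this comparison turned, to 17 higher and 13 lower. The study's methods instead took genes with an unadjusted p below 0.05 whose log2 fold change was 0.5 or larger in size. That rule took 8 of the 67 genes in SNI against sham, beside 14.8% of all genes. It took 1 of the 67 in SNI + G15 against SNI, beside 4.91%, and 5 in SNI + G15 against sham, beside 18.5%. The SNI libraries enter both SNI against sham and SNI + G15 against SNI, so the fold changes of these comparisons are not independent.

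**Figure D1:**
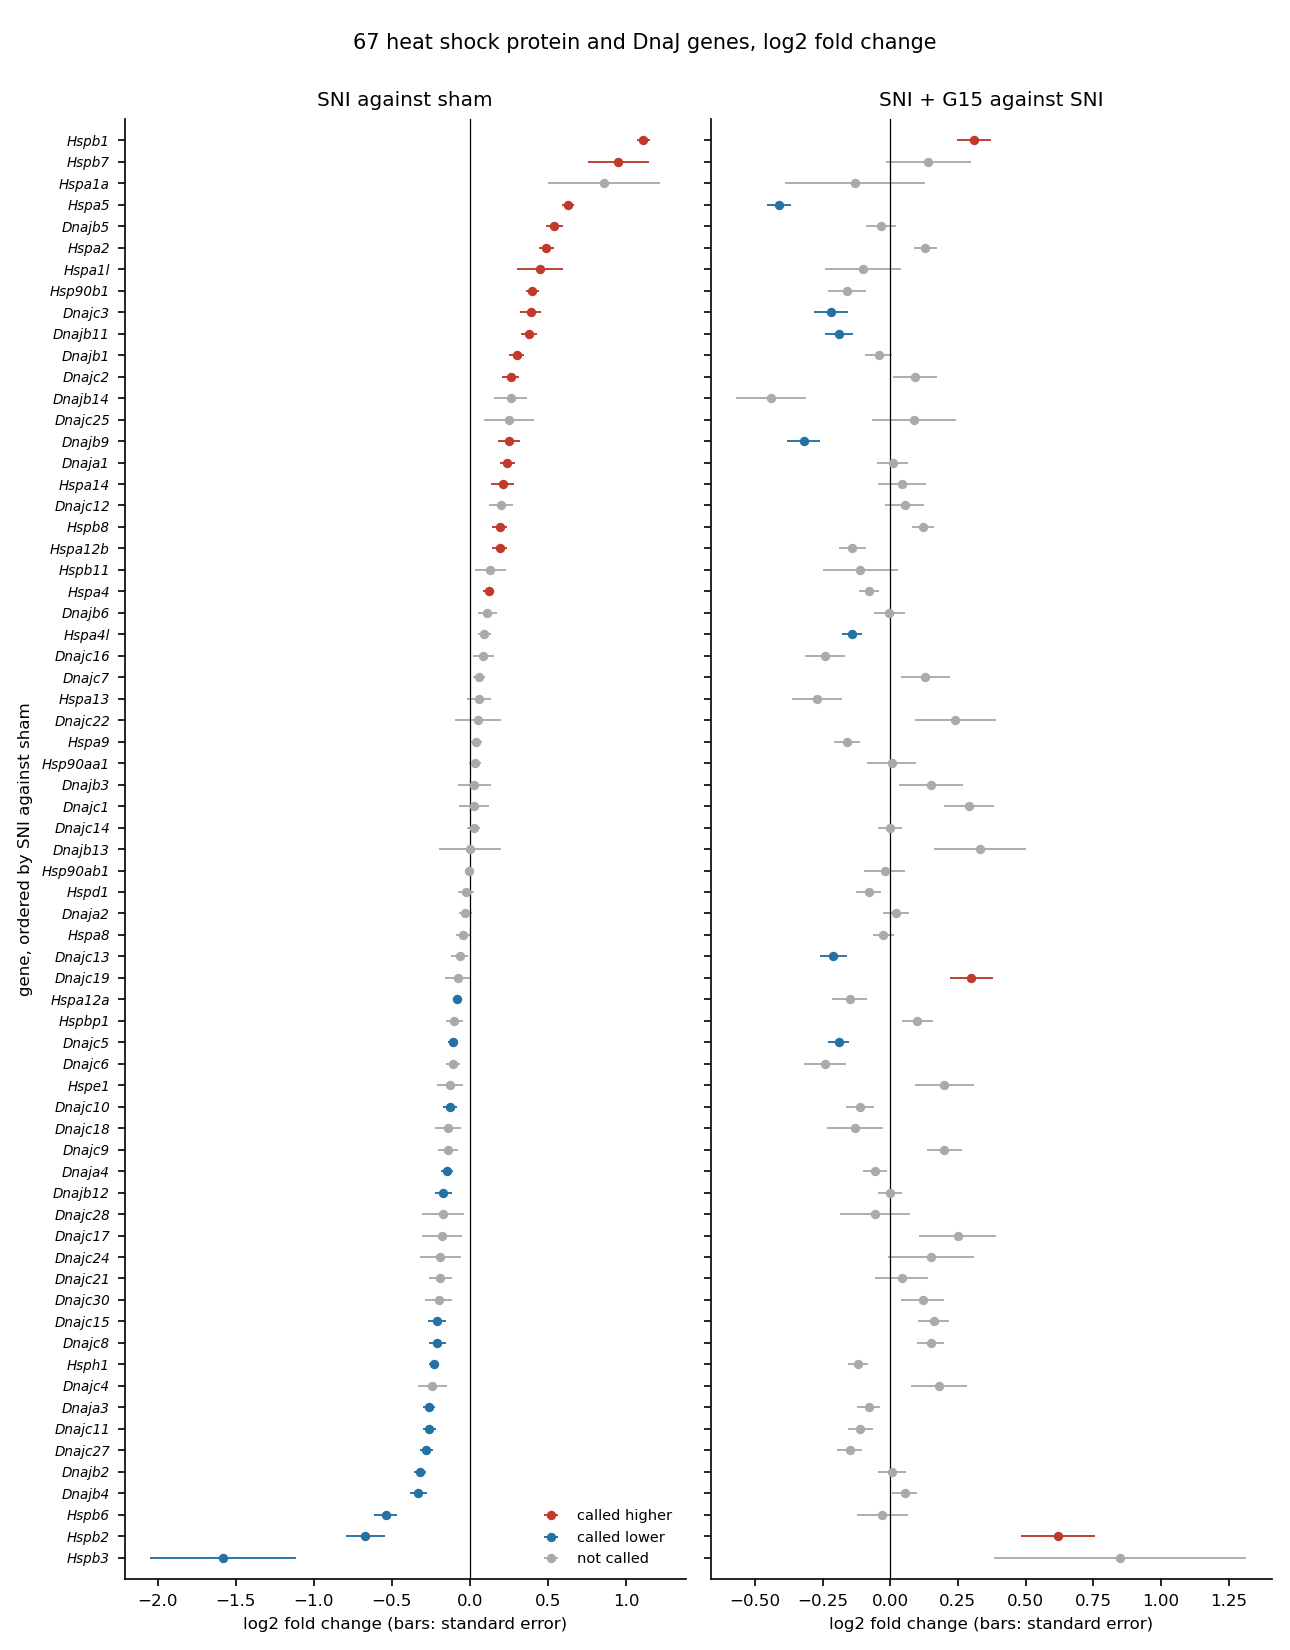
Log2 fold change of each of the 67 genes in SNI against sham (left) and SNI + G15 against SNI (right), in the order of the left panel; bars are standard errors of the edgeR fit, and red, blue and grey mark called higher, called lower and not called. The x axes differ in range. Hspb1 is at the top left with 1.11 and Hspb3 at the bottom with -1.58, and the genes called lower on the right include Hspa5, Dnajb9, Dnajb11 and Dnajc3, which were called higher on the left.

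Hspa5, Dnajb9, Dnajb11 and Dnajc3, chaperones of the endoplasmic reticulum, rose after injury and were lower again with G15. Hspa5, the HSP70 of this compartment, which also holds the sensors of the unfolded protein response in check, had FPKM values of 108, 106 and 98.4 in sham. In SNI the values were 165, 162 and 165, and in SNI + G15 they were 119, 119 and 128. The 3 groups did not overlap: every SNI + G15 library lay above sham and below SNI. Hspa5 rose by 0.63 on the log2 scale in SNI (SE 0.0391, adjusted p = 5.04e-07) and fell by 0.41 with G15 (SE 0.0444, adjusted p = 0.000684). Both calls held under the 15 alternatives run for single genes. Against sham, SNI + G15 was still higher by 0.19 (adjusted p = 0.0195), a call that was lost without sham replicate 3.

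Hsp90b1, the HSP90 of the endoplasmic reticulum, had 95.5, 93.9 and 88.0 in sham and 126, 127 and 121 in SNI. The SNI + G15 libraries had 109, 100.03 and 123, so the third of them lay within the SNI range and the others between the groups. The rise in SNI was 0.40 (SE 0.0395, adjusted p = 1.58e-05). The difference of SNI + G15 from SNI was -0.16 and was not called (adjusted p = 0.159). Without SNI + G15 replicate 3 it was -0.25 with an adjusted p of 0.0032.

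Among the DnaJ partners of Hspa5, Dnajb11 (ERdj3) helps it bind nascent clients. Its FPKM was 19.7, 18.9 and 17.6 in sham, 24.8, 24.7 and 25.4 in SNI, and 22.3, 20.5 and 22.0 in SNI + G15. The groups did not overlap, with SNI + G15 in between. It rose by 0.38 in SNI (adjusted p = 0.000167) and fell by 0.19 with G15 (adjusted p = 0.0383). Dnajc3 (p58IPK), which also restrains the kinase PERK, was 10.35, 9.29 and 10.52 in sham, 12.9, 13.8 and 13.6 in SNI, and 10.9, 11.35 and 11.8 in SNI + G15. Again no SNI library overlapped another group. The rise was 0.39 (adjusted p = 0.000887) and the fall with G15 was -0.22 (adjusted p = 0.0445). Both of these calls with G15 were lost under 8 alternatives each, among them DESeq2 and leaving out any SNI library.

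Dnajb9 (ERdj4), which represses the sensor IRE1 and serves the degradation of misfolded proteins, had 25.45, 23.95 and 20.6 in sham and 27.0, 29.6 and 28.4 in SNI. With G15 the values were 21.3, 22.3 and 23.7, within the sham range. It rose by 0.25 in SNI (adjusted p = 0.0153) and fell by 0.32 with G15 (adjusted p = 0.00995). Both calls were lost without SNI replicate 2.

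Other chaperones of this compartment took another course. Dnajc10 (ERdj5), a reductase of the endoplasmic reticulum, was lower in SNI by -0.13 (adjusted p = 0.0301), with 49.5, 45.7 and 45.4 in sham and 41.9, 44.0 and 44.9 in SNI, a call that 6 of 15 alternatives lost. Hspa13, a small HSP70-like protein, was not called in SNI (0.057) or with G15 (-0.27, adjusted p = 0.0856). The membrane-bound Dnajb12 was lower in SNI by -0.17 (adjusted p = 0.022), a call lost under 5 alternatives. Its relative Dnajb14 did not pass either test, at 0.26 in SNI (adjusted p = 0.0634) and -0.44 with G15 (adjusted p = 0.0502). Dnajc1 and Dnajc25 were not called in these comparisons. Of 11 genes placed in the endoplasmic reticulum from textbook knowledge after their values were seen, 5 were called higher and 2 lower in SNI. With G15, 0 were higher and 4 lower. Of all genes tested, 23.3% were called higher and 22.4% lower in SNI, and 7.98% and 7.25% with G15. As the set was drawn up with the calls known, its counts describe only these genes. The median log2 fold changes of the 11 were 0.25 and -0.19. Cell markers moved in the same libraries. The erythroid markers Hbb, Hba1, Alas2 and Slc4a1 summed to 439 to 517 (sham), 1392 to 1434 (SNI) and 833 to 986 (SNI + G15), and the macrophage markers to 118 to 129, 273 to 291 and 292 to 320. No marker of either list was at 0 in all libraries, and their part in the changes of these chaperones was not tested.

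**Figure D2:**
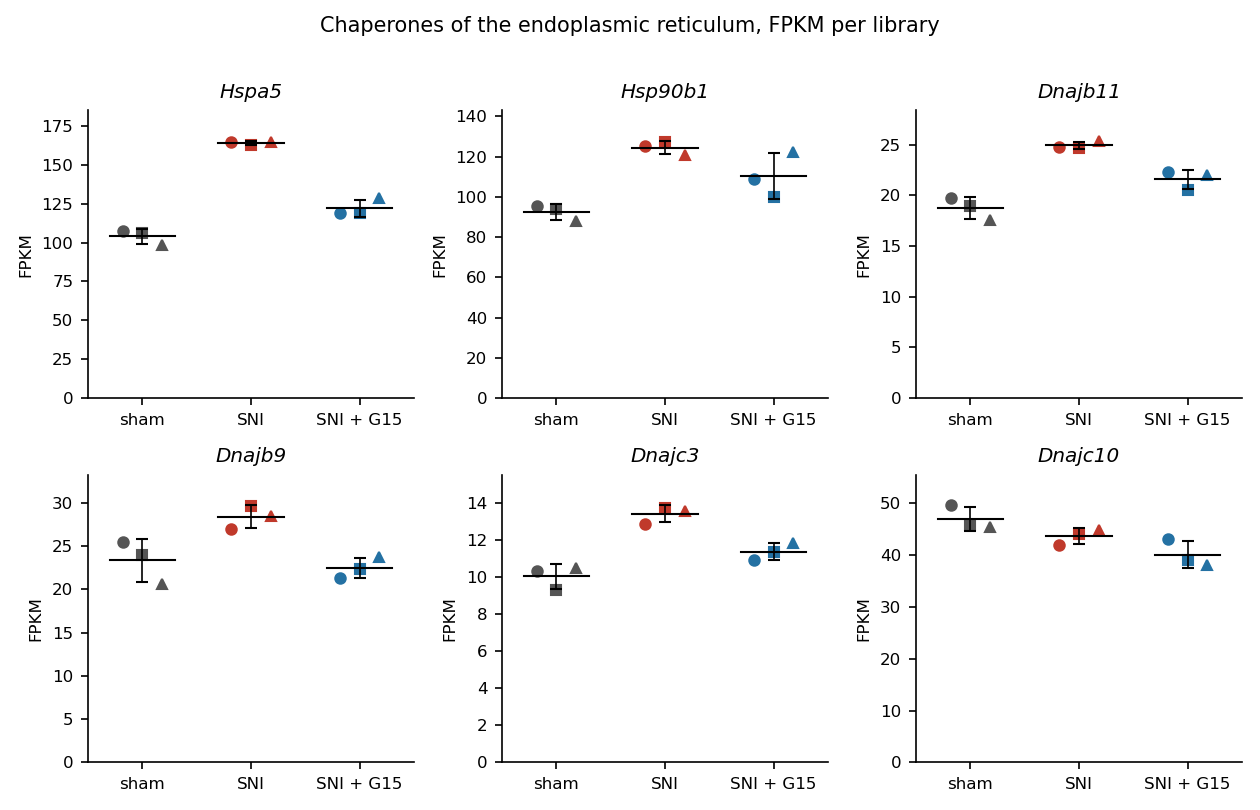
FPKM (y axis, from 0) of 6 chaperone genes of the endoplasmic reticulum in sham, SNI and SNI + G15; circles, squares and triangles are replicates 1, 2 and 3, long lines are means and whiskers are SD (n = 3). For Hspa5 the SNI libraries sit at 162 to 165, above the SNI + G15 libraries at 119 to 128 and the sham libraries at 98.4 to 108, and Dnajc10 shows no such peak.

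The promoters of these genes are shown because the endoplasmic reticulum stress element (ERSE) is the textbook motif of this pathway. RefSeq windows of the GRCr8 build, 250 bases before to 50 after a gene's start, were found for 54 of the 67 genes. Dnaja2, Dnajb4, Dnajc2, Dnajc8, Dnajc11, Dnajc12, Dnajc15, Dnajc22, Dnajc24, Hspa12a, Hsp90aa1, Hspb2 and Hspb11 had none. The ERSE was searched on both strands as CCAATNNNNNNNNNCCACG and its shorter form ERSE-II as ATTGGNCCACG, letters chosen after the expression values had been seen. The ERSE letters overlap those of the CCAAT box, which alone stood in 37.5% of all 33469 windows. The full ERSE stood in 0.0657% of all windows and in 0.153% of the 11140 tested genes with a window. Of the 54 chaperone genes, 3 held it: Hspa5, Hsp90b1 and Dnajc3. ERSE-II stood in 0.0508% of all windows and in 0.0808% of those tested genes. Of the 54, 1 held it, Dnajb11. The stretches below are printed 5′ to 3′ on the strand of the gene, with the matches in capitals. Hspa5 is at chr3:38452916-38453015 on the plus strand, Hsp90b1 at chr7:23012307-23012479 on the minus strand, Dnajc3 at chr15:102432493-102432592 on the plus strand and Dnajb11 at chr11:91672800-91672899 on the minus strand. Hsp90b1 holds a match on each strand.
Hspa5: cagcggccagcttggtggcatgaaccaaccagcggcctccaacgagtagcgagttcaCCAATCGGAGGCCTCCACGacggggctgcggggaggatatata
Hsp90b1: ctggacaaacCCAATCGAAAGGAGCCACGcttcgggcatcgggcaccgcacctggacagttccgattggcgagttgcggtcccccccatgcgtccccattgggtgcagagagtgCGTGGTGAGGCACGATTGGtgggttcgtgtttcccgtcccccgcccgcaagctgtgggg
Dnajc3: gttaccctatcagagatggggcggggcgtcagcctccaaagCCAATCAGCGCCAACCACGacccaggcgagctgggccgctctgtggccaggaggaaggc
Dnajb11: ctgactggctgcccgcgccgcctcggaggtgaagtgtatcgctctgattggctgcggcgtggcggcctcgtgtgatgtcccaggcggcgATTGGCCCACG

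The matched bases end close to the start of transcription in Hspa5 and Dnajb11, at positions -25 and 0 counted from the gene's first base as 0, and lie farther upstream in Dnajc3, from -133 to -115. A match is a description of letters and not of a bound site. Over all 11140 tested genes that have a window, 17 held the ERSE. Of these 17, 8 were called higher and 2 lower in SNI, and 1 was called higher and 6 lower with G15. Hspa5, Hsp90b1 and Dnajc3 are among the 17, and the motif was chosen with their calls known. The median log2 fold change of the 17 was 0.32 in SNI and -0.12 with G15. Of all genes tested, 23.3% were called higher and 22.4% lower in SNI, and 7.98% and 7.25% with G15. ERSE-II stood in 9 tested genes, of which 3 were called higher and 1 lower in SNI, and 1 was called higher and 4 lower with G15. Dnajb11, whose calls were likewise known, is among the 9. The medians of the 9 were 0.024 and -0.024. Besides the 3 chaperones, the genes that held the full ERSE and rose in SNI were Calr, Creld2, Xbp1, Zfand2a and Hnrnpa3.

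The small heat shock proteins held the 4 largest called changes of the 67 genes in SNI, those of Hspb3, Hspb1, Hspb7 and Hspb2. Hspb1 (HSP27), which binds actin and other clients and is known from injured sensory neurons, had FPKM values of 327, 356 and 358 in sham. In SNI the values were 774, 763 and 762, and in SNI + G15 they were 858, 936 and 1026. The groups did not overlap, and the order was sham, SNI, SNI + G15. Hspb1 rose by 1.11 on the log2 scale in SNI (SE 0.0405, adjusted p = 7.91e-09), a 2.16-fold increase. It was higher again by 0.31 with G15 (SE 0.063, adjusted p = 0.0134), and this second call was lost without SNI replicate 2 or 3. Against sham, SNI + G15 was higher by 1.40 (adjusted p = 5.1e-07).

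The summed FPKM of the 7 small heat shock proteins was 532 to 584 (sham), 989 to 1017 (SNI) and 1107 to 1285 (SNI + G15). The 6 markers of injured neurons (Atf3, Gal, Sprr1a, Npy, Gap43 and Csf1) summed to 178 to 192, 1544 to 1580 and 1582 to 1742 in the same groups. All 6 were called higher in SNI, and none was at 0 in all libraries. Their part in the change of Hspb1 was not tested. In whole ganglia, a change in the number of cells of a type and a change of RNA per cell cannot be told apart.

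Hspb8, which works with the cochaperone Bag3 in selective autophagy, rose less. Its values were 166, 184 and 169 in sham, 208, 201 and 194 in SNI, and 214, 214 and 219.62 in SNI + G15. The groups did not overlap with each other, but the steps were small, 0.19 in SNI (adjusted p = 0.00715) and 0.12 with G15 (adjusted p = 0.0856). Bag3 itself fell by 0.16 in SNI (adjusted p = 0.0047). Hspb7, a heart and muscle small heat shock protein, had 0.80, 1.19 and 1.10 in sham, 2.04, 1.92 and 2.14 in SNI, and 2.60, 1.93 and 2.11 in SNI + G15. Its rise of 0.95 in SNI passed the test (adjusted p = 0.00255) at a low level, and its difference with G15 did not.

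Hspb6, Hspb2 and Hspb3 fell. Hspb6 (HSP20), known from smooth muscle, was 14.56, 16.5 and 14.75 in sham, 10.9, 10.3 and 10.9 in SNI, and 10.8, 11.5 and 8.87 in SNI + G15. It fell by 0.54 in SNI (adjusted p = 0.000123) and stayed there with G15, where its value against SNI was -0.029 (adjusted p = 0.855). Hspb2, a partner of the myotonic dystrophy kinase, was 12.5, 14.1 and 11.1 in sham, 9.68, 7.62 and 7.71 in SNI, and 10.8, 11.8 and 15.15 in SNI + G15. The SNI libraries lay below both other groups, which overlapped. Hspb2 fell by 0.67 in SNI (adjusted p = 0.00128) and rose by 0.62 with G15 (adjusted p = 0.0177). The G15 call was lost without SNI replicate 2 or 3. Hspb3 rested on few reads, with 8, 11 and 14 estimated counts in sham, 3, 4 and 4 in SNI and 7, 5 and 8 in SNI + G15. Its fall of 1.58 in SNI (adjusted p = 0.0185) was lost under 5 of 14 alternatives, DESeq2 among them. Hspb11, also known as the transport protein Ift25, had 10.5, 11.4 and 9.95 in sham and 11.9, 12.8 and 11.1 in SNI and was not called in any comparison.

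Cryab, the small heat shock protein next to Hspb2, was also lowest in SNI, at a higher level. It had 120.8, 138 and 122 in sham, 80.0, 82.2 and 74.9 in SNI, and 107, 114 and 109.84 in SNI + G15. It fell by 0.71 in SNI (adjusted p = 4.46e-06) and rose by 0.49 with G15 (adjusted p = 0.000506). Unlike Hspb2, whose SNI + G15 libraries overlapped sham, it remained below sham there by -0.24 (adjusted p = 0.0127). The loci of Hspb2 and Cryab overlap by 1331 bases in RefSeq, and without strand information reads of the shared part cannot be told apart, so the values of Hspb2 are uncertain. The 6 Schwann cell markers summed to 5211 to 5319 (sham), 2848 to 2902 (SNI) and 3075 to 3196 (SNI + G15), with 6 of 6 called lower in SNI and 5 of 6 higher with G15. The 5 smooth muscle markers summed to 38.3 to 42.2, 44.6 to 47.7 and 62.5 to 72.5. The 7 skeletal muscle markers summed to 10.4 to 13.4 over the 9 libraries. No marker of these lists was at 0 in all libraries, and their part in the changes of Hspb2, Hspb6 and Cryab was not tested.

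**Figure D3:**
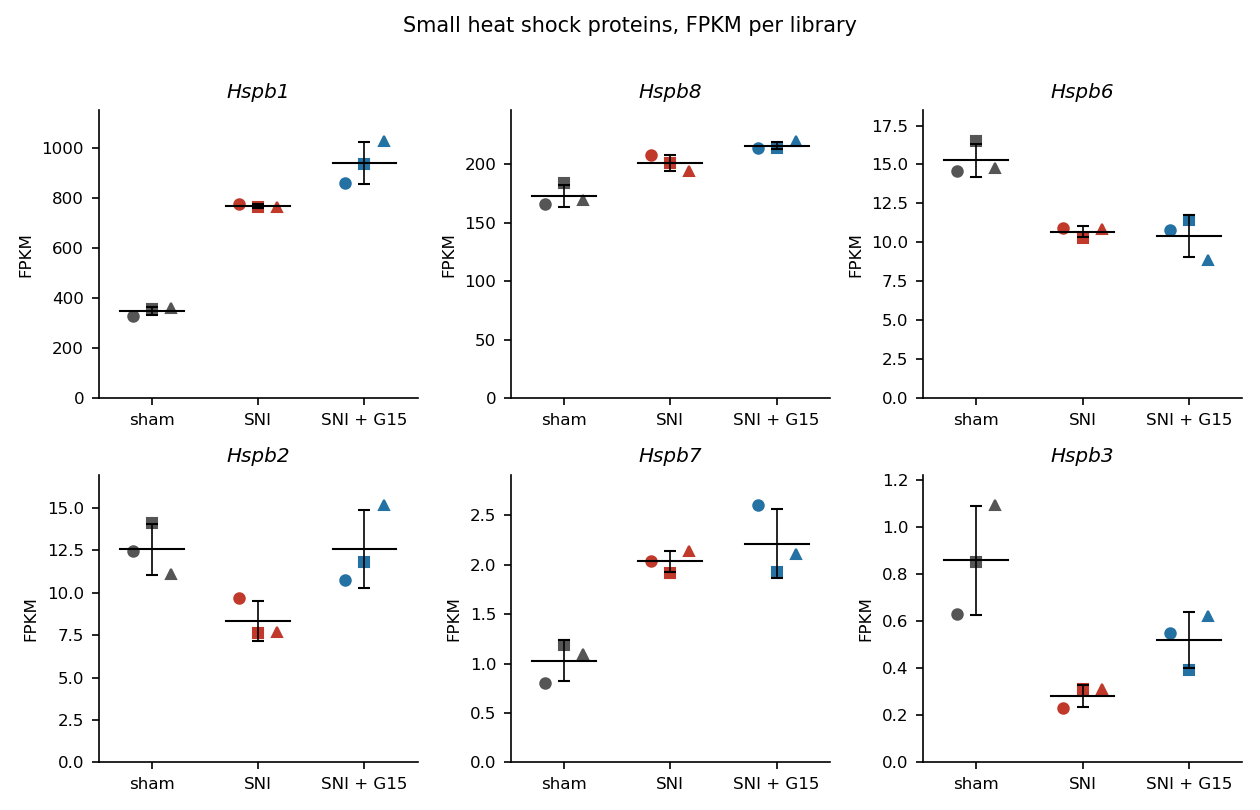
FPKM (y axis, from 0) of 6 small heat shock protein genes in sham, SNI and SNI + G15; circles, squares and triangles are replicates 1, 2 and 3, long lines are means and whiskers are SD (n = 3). Hspb1 climbs to 858 to 1026 in SNI + G15, Hspb6 falls in SNI and stays low, and Hspb2 is lowest in SNI at 7.62 to 9.68.

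Hspa8, Hsp90ab1 and Hsp90aa1, the most abundant of these genes in sham, did not pass the test in SNI. Hspa8, the constitutive HSP70 that also uncoats clathrin vesicles, had 1134, 1253 and 1100.22 in sham, 1165, 1138 and 1144 in SNI, and 1078, 1109.78 and 1167 in SNI + G15. The 3 groups overlapped, and its log2 fold change in SNI was -0.046 (SE 0.0433, adjusted p = 0.412). Hsp90ab1, the constitutive HSP90, had 975, 959 and 973 in sham and 985, 987 and 984 in SNI, so that its FPKM values did not overlap. After the scaling of the fit its log2 fold change was -0.005 (SE 0.0236, adjusted p = 0.874). Hsp90aa1, its inducible relative, had 795, 749 and 703 in sham and 780.35, 774 and 790.18 in SNI, with a log2 fold change of 0.032 (adjusted p = 0.536).

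Hsp90ab1 was 894 and 897 in SNI + G15 replicates 1 and 2 and 1093 in replicate 3. Hsp90aa1 was 718 and 701 in the first pair and 911 in replicate 3. The first pair lay below every SNI library and the third library above them. With all libraries, neither gene was called against SNI, with log2 fold changes of -0.021 and 0.006 and adjusted p-values of 0.869 and 0.971. Without replicate 3 both were lower, by -0.13 with adjusted p-values of 0.0025 and 0.00335.

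Among the less abundant HSP70 genes, Hspa2, known for its role in the male germ line, had 21.8, 20.5 and 23.2 in sham, 31.2, 32.0 and 30.8 in SNI, and 33.8, 35.2 and 33.0 in SNI + G15. The sham libraries lay below all others. Hspa2 rose by 0.49 in SNI (adjusted p = 2.16e-05) and its value with G15 was 0.13 (adjusted p = 0.0699), or 0.15 without SNI + G15 replicate 3 (adjusted p = 0.0349). The inducible Hspa1a reached 0.85, 1.71 and 1.05 in SNI and did not pass the test, with a log2 fold change of 0.86 (SE 0.358, adjusted p = 0.0712). Its neighbour Hspa1l, whose locus overlaps it, was at 1.11 to 1.21 in sham and 1.52 to 1.63 in SNI, a rise of 0.45 (adjusted p = 0.029) that was lost under 6 alternatives, DESeq2 among them. The estimated counts of Hspa8, Hspa1a and Hspa1l were not whole in any of the 9 libraries, as happens where reads that match several genes are divided among them, so the split between near-identical relatives is uncertain. The same held for Hspa9, Hspa4l, Hsp90aa1 and Hsp90ab1.

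Of the remaining HSP70 relatives, Hspa12b, found in endothelium, rose by 0.19 in SNI (adjusted p = 0.0063). With G15 it was not called (-0.14, adjusted p = 0.0914). The 4 endothelial markers summed to 43.8 to 48.8 (sham), 42.4 to 43.9 (SNI) and 54.8 to 62.0 (SNI + G15). Their part in the values of Hspa12b was not tested. Hspa14, a ribosome-bound HSP70, rose by 0.21 (adjusted p = 0.0396) and Hspa12a, a distant neuronal relative, fell by 0.082 (adjusted p = 0.041). The last pair of calls was lost under 8 and 11 of 15 alternatives. Hspa12a was also lower with G15 by -0.15, a value that did not pass (adjusted p = 0.145), and SNI + G15 replicate 3 held its lowest FPKM, 100.78 beside 122.89 and 120.58.

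The HSP110 genes split. Hsph1 (HSP105), which exchanges the nucleotide of HSP70, was 88.6, 85.0 and 85.7 in sham, 74.6, 74.0 and 76.65 in SNI, and 69.8, 68.1 and 67.7 in SNI + G15. The groups did not overlap, and the order was the reverse of that of Hspb1. Hsph1 fell by 0.23 in SNI (SE 0.0346, adjusted p = 0.0003) and differed by -0.12 with G15 (adjusted p = 0.0598), a value that passed without SNI + G15 replicate 3 (adjusted p = 0.0366). Hspa4 (APG-2) instead rose by 0.12 in SNI (adjusted p = 0.0161), where its 3 libraries had 52.25, 53.9 and 53.3 beside 49.2, 47.8 and 46.4 in sham. Hspa4l was not called in SNI (0.093, adjusted p = 0.104) and fell by 0.14 with G15 (adjusted p = 0.0413), a call that was lost under 9 of 15 alternatives.

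**Figure D4:**
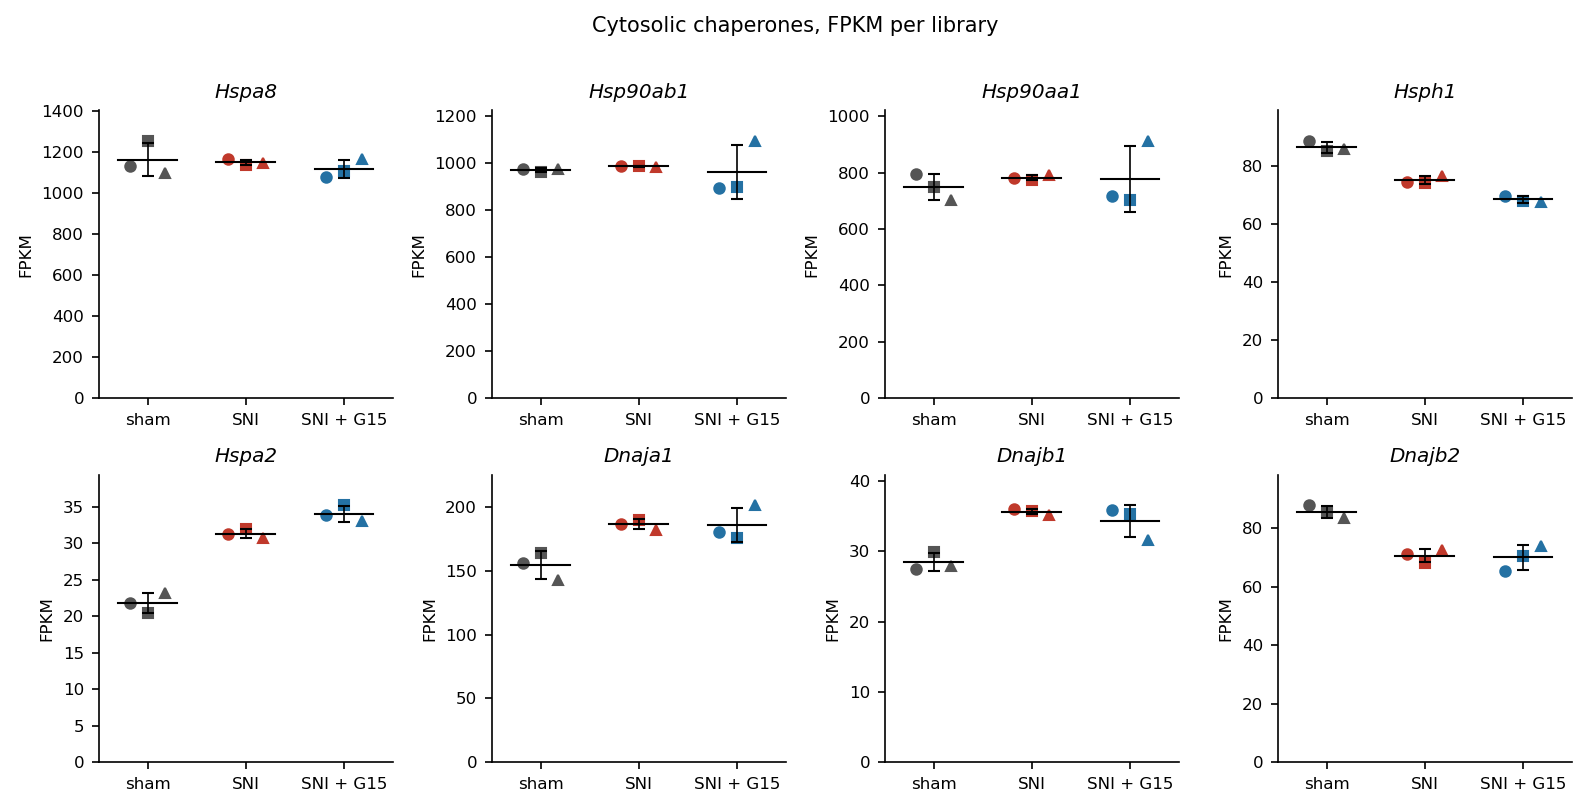
FPKM (y axis, from 0) of 8 cytosolic chaperone genes in sham, SNI and SNI + G15; circles, squares and triangles are replicates 1, 2 and 3, long lines are means and whiskers are SD (n = 3). Hspa8, Hsp90ab1 and Hsp90aa1 overlap or lie close in sham and SNI, the triangle of SNI + G15 stands above the other libraries of its group for both HSP90 genes, and Hsph1 steps down, ending at 67.7 to 69.8 in SNI + G15.

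For these cytosolic chaperones the heat shock element (HSE) is the textbook promoter motif. It was searched on both strands as GAANNTTCNNGAA, again chosen after the values had been seen. It stood in 0.798% of all 33469 windows and in 0.485% of the 11140 tested genes with a window. Of the 54 chaperone genes with a window, 5 held it: Hspa8, Hsph1, Hspd1, Hspe1 and Dnaja1. Hspd1 and Hspe1 lie head to head and share the same matched bases, a pair of overlapping matches on opposite strands. Hspa8 holds 2 matches, and that of Dnaja1 lies after the start. The stretches of 3 of them are printed on the strand of the gene with the matches in capitals, to show a single match, separate matches and overlapping ones. Hspa8 is at chr8:50080291-50080511, Hsph1 at chr12:10427268-10427367 and Hspe1 at chr9:64084220-64084319, each on the plus strand.
Hspa8: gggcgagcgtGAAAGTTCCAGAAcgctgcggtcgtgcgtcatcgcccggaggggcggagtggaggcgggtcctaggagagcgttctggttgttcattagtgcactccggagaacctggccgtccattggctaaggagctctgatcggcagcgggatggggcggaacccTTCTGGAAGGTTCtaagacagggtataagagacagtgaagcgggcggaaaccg
Hsph1: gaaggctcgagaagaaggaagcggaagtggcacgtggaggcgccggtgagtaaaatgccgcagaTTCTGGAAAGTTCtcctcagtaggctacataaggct
Hspe1: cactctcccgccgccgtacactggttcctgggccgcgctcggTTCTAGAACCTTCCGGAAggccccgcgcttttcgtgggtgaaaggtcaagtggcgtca

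The 5 genes with these letters did not share a direction. In SNI, Dnaja1 was called higher, Hsph1 lower, and Hspa8, Hspd1 and Hspe1 were not called. With G15 none of the 5 was called. Over all tested genes with a window, 54 held the motif, of which 14 were called higher and 17 lower in SNI. With G15, 2 of them were called higher and 5 lower. Of all genes tested, 23.3% were called higher and 22.4% lower in SNI, and 7.98% and 7.25% with G15.

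The cytosolic DnaJ proteins that feed HSP70 also moved in both directions. Dnaja1, a farnesylated partner of Hspa8, had 156, 164 and 143 in sham, 187, 189.88 and 182 in SNI, and 180.36, 176 and 200.99 in SNI + G15. The sham libraries lay below all others, and the rise in SNI was 0.24 (adjusted p = 0.00217). Dnajb1, the main inducible HSP40, was 27.5, 29.9 and 27.9 in sham, 35.95, 35.8 and 35.2 in SNI, and 35.8, 35.2 and 31.65 in SNI + G15. It rose by 0.30 in SNI (adjusted p = 0.000471). Dnajb5, a nuclear and cytosolic HSP40, had 8.65, 8.95 and 9.01 in sham, 12.55, 13.3 and 13.7 in SNI, and 12.5, 13.0 and 12.7 in SNI + G15. Its rise of 0.54 (adjusted p = 1.58e-05) was the largest called rise of a DnaJ gene in SNI. Dnajc2, a DnaJ protein of the ribosome, rose by 0.26 (adjusted p = 0.00366). None of these 4 genes was called between SNI + G15 and SNI.

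Dnajb2, Dnajb4 and Dnaja4 fell. Dnajb2 (HSJ1), a neuronal DnaJ that passes clients to the proteasome, had 87.9, 85.7 and 83.7 in sham, 71.4, 68.2 and 72.5 in SNI, and 65.5, 70.65 and 74.1 in SNI + G15. No sham library overlapped the others. Dnajb2 fell by 0.32 in SNI (SE 0.0394, adjusted p = 8.28e-05) and was 0.007 with G15. Dnajb4, a stress-inducible HSP40, fell by 0.33 (adjusted p = 0.000581), with 30.9, 29.8 and 26.8 in sham and 22.75, 23.5 and 23.2 in SNI. Dnaja4 fell by 0.15 (adjusted p = 0.00905). The abundant Dnaja2, Dnajb6 and Dnajc7 were not called in any comparison, and for Dnajc7 SNI + G15 replicate 3 stood at 109 beside 87.7 and 85.2.

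A mitochondrial set of 8 genes was drawn up with the calls known, so its counts, given below, describe only these genes. The chaperonin subunits Hspd1 (HSP60) and Hspe1 (HSP10), which form the folding chamber of the matrix, were not called in any comparison. Hspd1 had 84.9, 82.8 and 73.55 in sham and 80.8, 81.3 and 80.3 in SNI, and Hspe1 had 69.3, 78.8 and 67.7 in sham and 73.4, 68.9 and 59.7 in SNI. For both the groups overlapped. Hspa9 (mortalin), the HSP70 of the matrix and of protein import, had 78.5, 75.5 and 71.5 in sham and 78.6, 77.9 and 79.98 in SNI and was not called either (0.039). With G15 its log2 fold change was -0.16 and did not pass (adjusted p = 0.054). Without SNI + G15 replicate 3, Hspa9 and Hspd1 were both called lower with G15, by -0.11 (adjusted p = 0.0398) and -0.12 (adjusted p = 0.0291).

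Its DnaJ partner Dnaja3 (Tid1) did change, with 39.0, 40.5 and 40.8 in sham, 33.9, 33.3 and 34.0 in SNI, and 32.2, 34.3 and 29.25 in SNI + G15. It fell by 0.26 in SNI (SE 0.0393, adjusted p = 0.000334). Dnajc11, a protein of the cristae junctions, fell by 0.26 as well (adjusted p = 0.000514), with 28.8, 28.6 and 28.5 in sham and 23.8, 25.6 and 25.4 in SNI. Dnajc15, a protein of the inner membrane, fell by 0.21 (adjusted p = 0.0107). With G15 its value was 0.16 (adjusted p = 0.0932), or 0.20 without SNI + G15 replicate 3 (adjusted p = 0.0328). Dnajc19, its relative at the import motor, was not called in SNI but rose by 0.30 with G15 (adjusted p = 0.0364), from 25.5, 28.7 and 25.9 to 33.3, 29.9 and 36.5, and 7 alternatives lost this call, among them leaving out SNI + G15 replicate 3 (0.23, adjusted p = 0.0539). Its locus overlaps that of Fxr1, so its reads are uncertain without strand. In RefSeq, 35 of the 67 loci overlap another gene. Among them are Dnajc27 with Adcy3, Hspa12a with Eno4 and Hspa14 with Msantd7, whose values carry the same limit. Of 8 genes placed in mitochondria after their values were seen, 0 were called higher and 3 lower in SNI. With G15, 1 was higher and 0 lower. Of all genes tested, 23.3% were called higher and 22.4% lower in SNI, and 7.98% and 7.25% with G15.

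Among the DnaJ proteins of vesicle traffic, Dnajc5 (cysteine string protein), which protects the fusion machinery of synaptic vesicles, had 49.1, 48.4 and 49.25 in sham, 46.4, 47.2 and 44.9 in SNI, and 42.5, 40.6 and 37.9 in SNI + G15. The groups did not overlap and fell in that order. The steps were -0.11 in SNI (adjusted p = 0.0184) and -0.19 with G15 (adjusted p = 0.0118), and the first was lost under 6 alternatives and the second under 4. Dnajc13 (RME-8), which acts on endosomes, was not called in SNI and fell by 0.21 with G15 (adjusted p = 0.0278), a call lost under 6 alternatives. Its values were 11.01, 10.62 and 11.05 in SNI and 9.78, 9.57 and 8.67 in SNI + G15. Dnajc6 (auxilin), which uncoats clathrin vesicles in neurons, had 32.1, 34.1 and 34.8 in SNI and 31.1, 29.0 and 24.3 in SNI + G15, a difference of -0.24 that did not pass (adjusted p = 0.0667). Without SNI + G15 replicate 3 it was -0.15 and passed (adjusted p = 0.0455). Against sham, all 3 of these genes were called lower in SNI + G15, where 21.9% of all genes tested were. The 3 were grouped after their values were seen, so this count describes only these genes. Of the 7 neuronal markers, 2 were called higher and 4 lower in SNI, and 1 was higher and 1 lower with G15. Their median log2 fold changes were -0.35 and -0.03. The part of these markers in the falls of Dnajb2, Hspa12a and the 3 vesicle genes was not tested. Dnajc27, a DnaJ protein with a Rab-like GTPase fold, fell by 0.28 in SNI (adjusted p = 0.000265), and Dnajc8, which binds splicing factors, fell by 0.21 (adjusted p = 0.00834).

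The remaining DnaJ genes are what was left after those called in SNI or with G15 were described. Their lack of such calls follows from that choice. Dnajb3, Dnajb13, Dnajc1, Dnajc4, Dnajc9, Dnajc12, Dnajc14, Dnajc16, Dnajc17, Dnajc18, Dnajc21, Dnajc22, Dnajc24, Dnajc25, Dnajc28 and Dnajc30 were not called in SNI against sham or in SNI + G15 against SNI, and neither was Hspbp1, an exchange factor of HSP70. Against sham, Dnajc1 and Dnajc12 were higher in SNI + G15, by 0.29 (adjusted p = 0.0417) and 0.23 (adjusted p = 0.0455), and Dnajc18 was lower by -0.29 (adjusted p = 0.0351). Without SNI + G15 replicate 3 none of these calls held, with adjusted p-values of 0.0938 for Dnajc1, 0.0527 for Dnajc12 and 0.101 for Dnajc18, whose difference was then -0.18.

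The SNI libraries serve in both steps, so the 2 sets of calls are given side by side only. Of the 17 genes called higher in SNI, 4 were called lower with G15, 1 higher and 12 not called. The 4 were Hspa5, Dnajb9, Dnajb11 and Dnajc3, and the 1 was Hspb1. Of the 16 called lower in SNI, 1 was called higher with G15 (Hspb2), 1 lower (Dnajc5) and 14 not called. Of the 34 not called in SNI, 1 was higher and 2 lower with G15. The 4 genes that went up and then down are the chaperones of the endoplasmic reticulum described above. The same cross was not counted over all genes, so 4 of 17 cannot be set against the share among genes in general.

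The genes that work with these chaperones were read from lists of 82 tested genes. Of the 20 folding partners of the endoplasmic reticulum, 11 were called higher and 1 lower in SNI, and 0 higher and 6 lower with G15. Of all genes tested, 23.3% were higher and 22.4% lower in SNI, and 7.98% and 7.25% with G15. The median log2 fold changes of the 20 were 0.16 and -0.081. Creld2, a stress-induced secreted protein, had 6.00, 6.60 and 5.60 in sham, 14.04, 12.25 and 12.85 in SNI, and 9.55, 8.95 and 9.92 in SNI + G15, without overlap. It rose by 1.09 (adjusted p = 2.99e-06) and fell by 0.46 (adjusted p = 0.00587). Manf, a trophic factor that binds Hspa5, rose by 0.65 and fell by 0.24, and the lectin chaperone Calr rose by 0.41 and fell by 0.17, all called. Sdf2l1, a partner of Dnajb11, rose in SNI by 0.89 (adjusted p = 7.25e-06) and was not called with G15. Herpud1 was not called in SNI (0.024) and fell by 0.24 with G15 (adjusted p = 0.0116). The 1 gene called lower in SNI, Derl3, had FPKM values of 1.13, 0.62 and 0.43 there.

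Of 26 cochaperones of HSP70 and HSP90, 4 were called higher and 12 lower in SNI, where 23.3% and 22.4% of all genes were. Their median log2 fold change was -0.11. Those called lower included the HSP90-binding immunophilins Fkbp5 (-0.39, adjusted p = 0.000125) and Fkbp4 (-0.28, adjusted p = 0.000176). Bag2, a nucleotide exchange factor, rose by 0.69 (adjusted p = 0.000129), and Grpel2 and Chordc1 rose by 0.33 and 0.28. With G15, 2 of the 26 were called higher and 0 lower. Fkbp5, a target of the glucocorticoid receptor, had 14.5, 13.5 and 14.1 in sham, 10.85, 11.6 and 10.75 in SNI, and 14.3, 13.7 and 15.5 in SNI + G15, and rose by 0.42 with G15 (adjusted p = 0.00336). The other was Grpel1, the exchange factor of Hspa9, with -0.27 in SNI and 0.33 with G15 (adjusted p = 0.00951).

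The heat shock factors and the genes grouped with them formed a further list. For it and the lists below, the shares of all genes were 23.3% called higher and 22.4% lower in SNI. With G15 they were 7.98% and 7.25%. Hsf1, the main transcription factor of the heat shock response, had 19.4, 18.4 and 18.9 in sham, 19.3, 17.3 and 18.2 in SNI, and 19.7, 21.4 and 18.1 in SNI + G15, and was not called in any comparison. Of 7 tested genes of that list, 1 was higher and 1 lower in SNI: Serpinh1, the collagen chaperone, rose by 0.75 (adjusted p = 1.57e-07) and Hsf4 fell by 0.32 (adjusted p = 0.000291). None of the 7 was called with G15. The cytosolic chaperonin TRiC and prefoldin had 1 higher and 2 lower of 14 in SNI, and 2 higher with G15, the prefoldin subunits Pfdn5 (0.40, adjusted p = 0.0247) and Pfdn1 (0.36, adjusted p = 0.00274). Of 8 genes of p97 and of autophagy receptors, 0 were higher and 2 lower in SNI and none was called with G15. Relatives with other symbols had 2 higher and 2 lower of 7 in SNI. Among them Hyou1, the HSP110 of the endoplasmic reticulum, rose by 0.30 in SNI (adjusted p = 0.000513) and fell by 0.27 with G15 (adjusted p = 0.00341).

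**Figure D5:**
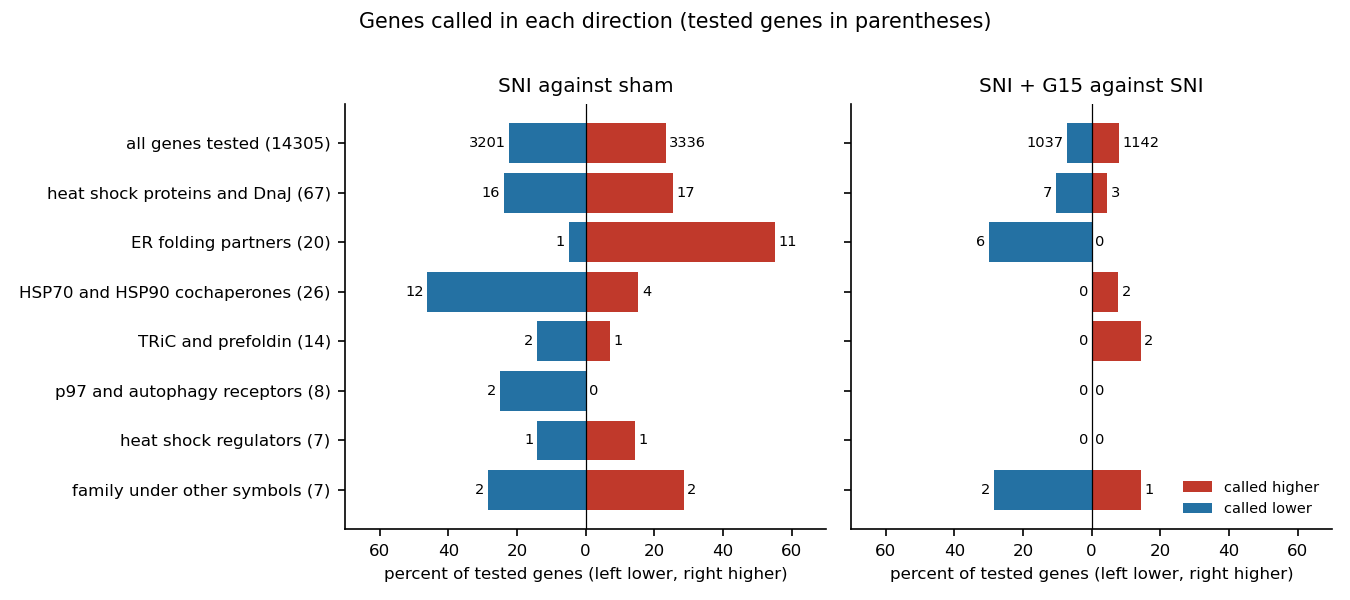
For each of SNI against sham and SNI + G15 against SNI, the share of tested genes called higher (right, red) and lower (left, blue), shown for all genes, the 67 heat shock protein and DnaJ genes and 6 lists of partner genes; the x axis is percent, numbers at the bars are genes called and numbers in parentheses are genes tested. The folding partners of the endoplasmic reticulum have 11 higher in SNI and 6 lower with G15, and the cochaperones have 12 lower in SNI.

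At the level of transcripts, 35 of the 67 genes had 1 deposited transcript, and 29 had at least 2 transcripts that reached an FPKM of 1. For Dnaja1, the main transcript held 91.1% to 93.6% of the gene in sham and 93.6% to 95.6% in SNI, so its rise was carried by that transcript. Dnajc14 and Hspb11 were looked at after their values were seen. The main transcript of Dnajc14 held 65.1% to 67.1% of the gene (sham), 17.1% to 55.5% (SNI) and 58.4% to 72.6% (SNI + G15), and that of Hspb11 held 58.9% to 90.8%, 26.9% to 51.1% and 60.2% to 82.1%. For both, the SNI libraries lay below the others and spread widely. These shares are estimates of the authors' quantification, no test was run on them, and neither gene was called at the gene level.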

How the data were processed

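The authors deposited estimated counts and FPKM values per gene and per transcript, for each of 9 libraries with replicates not pooled. Per the methods, gene FPKM was obtained by the authors by adding transcript FPKM. The submitters' processing notes list the builds GRCm38 and mm10, which are mouse builds, while the gene identifiers are rat. The aligner and the counting strand are not given in the sources used here. Columns named Control were taken as sham, since the other columns name SNI and SNI + G15. Of the gene values in a library, 70.9% to 72.0% were whole. Plot data and correlation tables were not used.

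For the tests, these counts were rounded to whole numbers. The quasi-likelihood test of edgeR 4.0.16 with TMM scaling (limma 3.58.1 and R 4.3.3) was run on 14305 genes, those that reached an FPKM of 1 in any library. Each comparison was fitted on its 6 libraries without a block, and p-values were Benjamini-Hochberg adjusted over all genes tested. The script was tested on simulated data. The alternatives were DESeq2 1.42.0, RLE factors, library totals, other FPKM filters, limma on log2(FPKM + 1) and log2(FPKM + 0.1), all 9 libraries together, a replicate block, each library left out, and the p and fold rule of the methods.

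Members, partner lists, marker lists and tests were chosen with earlier results of these data known. Named were the heat shock protein genes outside the DNAJ classes, the 8 called DNAJ genes with the largest change in each direction in SNI, the 3 most abundant of each DNAJ class, genes called with G15, and up to 4 called genes of a partner list. Dnajb14, Dnajc1, Dnajc6, Dnajc10, Dnajc12, Dnajc14 and Dnajc18, and Bag3, Calr, Fkbp4 and Hsf1 among the partners, were named beyond that after their values were seen, as were the compartments and the promoter motifs. Motifs were searched in RefSeq promoter windows of GRCr8, and gene overlaps were read from RefSeq GRCr8.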

Additional observations from a re-analysis of the deposited data

How the results depend on the processing

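Of 68 called values of single genes, 42 stayed called under the alternatives run for them, and none of the 68 reversed. The median log2 fold change of all genes lay between -0.00805 and 0.0374 under the alternatives that kept all libraries. Under the p and fold rule of the methods, the 67 chaperone genes gave 8 calls in SNI against sham (5 higher and 3 lower, 2118 of all genes), 1 in SNI + G15 against SNI (1 higher and 0 lower, 703 of all genes) and 5 in SNI + G15 against sham (4 higher and 1 lower, 2653 of all genes). In SNI + G15 against SNI, 4 genes were called lower without the FPKM filter and 12 with all 9 libraries fitted together. Replicate numbers did not pair the samples, with correlations of deviations between -0.125 and 0.0923, and the replicate block left 4 chaperone genes called in that comparison, 2 of them lower, and 1292 of all genes. With the block, 32 were called in SNI against sham, and the comparison of SNI + G15 with sham had 21. With 1 library left out, SNI + G15 against SNI gave 1 to 18 chaperone calls (0 to 4 higher, 1 to 14 lower), 893 to 2333 of all genes and 6 to 17 of the partner genes, and SNI + G15 against sham gave 6 to 12 chaperone genes called higher, the 6 without sham replicate 3. The cause was not tested.

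Values that reversed belonged to genes that were not called in that comparison. With library totals, limma on log2(FPKM + 1) and limma on log2(FPKM + 0.1), in that order, the log2 fold changes in SNI against sham were 0.025, 0.0244 and 0.0244 for Hsp90ab1 and 0.00725, 0.00901 and 0.00914 for Hspd1. In SNI + G15 against SNI they were -0.00231, -0.00595 and -0.00599 for Dnaja1, -0.00529, -0.0143 and -0.0146 for Dnajb2, and -0.00753, -0.0193 and -0.0193 for Hsp90aa1. In SNI + G15 against sham they were 0.00824, 0.00596 and 0.00605 for Dnaja2 and 0.021, 0.023 and 0.0233 for Hspbp1. The replicate block gave -0.00572 for Hsp90aa1 in SNI + G15 against SNI and -0.0082 for Hspb11 in SNI + G15 against sham. Without the FPKM filter, Dnajb12 was 0.000466 in the first of these and Hspb11 -0.00283 in the second.

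With 1 library left out, the log2 fold changes in SNI against sham ran from -0.145 to 0.0175 for Dnajc19, -0.0283 to 0.0864 for Dnajc1, -0.00767 to 0.0745 for Hsp90aa1, -0.0127 to 0.00176 for Hsp90ab1, -0.0802 to 0.0108 for Hspa8 and -0.0792 to 0.0154 for Hspd1. In SNI + G15 against SNI they ran from -0.0578 to 0.0496 for Dnaja1, -0.015 to 0.047 for Dnaja2, -0.0707 to 0.00425 for Dnajb1, -0.0172 to 0.0137 for Dnajb12, -0.0348 to 0.0494 for Dnajb2, -0.0649 to 0.0279 for Dnajb6, -0.0071 to 0.16 for Dnajc2, -0.00326 to 0.2 for Dnajc7, -0.133 to 0.0759 for Hsp90aa1, -0.131 to 0.0343 for Hsp90ab1, -0.0478 to 0.105 for Hspa14, -0.329 to 0.21 for Hspa1a, -0.0647 to 0.00615 for Hspa8 and -0.106 to 0.0663 for Hspb6. In SNI + G15 against sham they ran from -0.112 to 0.0909 for Hsp90aa1, -0.148 to 0.013 for Hsp90ab1, -0.149 to 0.106 for Hspb11, -0.161 to 0.021 for Hspb2, -0.0821 to 0.0455 for Hspbp1 and -0.059 to 0.127 for Hspe1. Depth limits Hspb3, Hspb7 and Hspa1a, whose levels stayed near or under an FPKM of 1 in sham.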
